A study of Mus musculus with 48 samples.

Results

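Esrrb, Nr5a2 and Nr0b1 are nuclear receptor genes tied to pluripotency in mouse embryonic stem cells (ESCs), and their newly made RNA was followed after loss of either of a pair of transcription factors, FOXD3 and OCT4. The 3 genes were taken by symbol, matched from the gene identifier without its version, out of 54752 genes listed in each of 3 count tables, and all 3 passed the low-count filter in all 3 tables. Nascent RNA was labelled with 4-thiouridine (4SU), a uridine analogue built into transcripts as they are made, for 30 min in cycling cells and 15 min in synchronized cells, and 48 libraries in 24 groups of 2 were sequenced. All cells were mouse ESCs grown in L2i medium. In FOXD3-iKO cells, an inducible FOXD3 knockout line, 4-hydroxytamoxifen (4HT) was compared with its solvent ethanol at 8, 14, 24 and 32 h of treatment in cycling cells. The same comparison was made in FOXD3-iKO cells held by a double thymidine block, which stops cells at the start of DNA replication, and collected 0, 1, 2, 3, 4 and 5 h after release, the release being set at 24 h of treatment. The OCT4-tetOff line received doxycycline, with water as its vehicle, for 16 or 24 h. The labels do not say how 4HT removes FOXD3, how many clones stand behind a line, or whether replicates came from separate cultures, so p-values measure the spread between these libraries, which may be technical.

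Nuclear receptors bind DNA through a zinc finger domain and recruit coactivators or corepressors through a ligand-binding domain. Esrrb (estrogen-related receptor beta) and Nr5a2 (LRH-1) belong to the orphan receptors, which can act without a known hormone and recognise a single extended AGGTCA element as monomers. In mouse ESCs Esrrb is a direct activator within the naive pluripotency network, and Nr5a2 binds regulatory regions of Pou5f1, the gene of OCT4, and of Nanog. Nr0b1 (DAX1) lacks the usual DNA-binding domain and works mainly by binding other proteins, the NR5A receptors and OCT4 among them, often as a repressor.

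The genes differ widely in size, which matters because the counted interval runs over the whole annotated gene with its introns. Esrrb (ENSMUSG00000021255.17) spans 160.51 kb on the plus strand of chromosome 12, positions 86361117 to 86521628 of mm10. Nr5a2 (ENSMUSG00000026398.14) spans 117.88 kb on the minus strand of chromosome 1, positions 136842571 to 136960448. Nr0b1 (ENSMUSG00000025056.4) spans only 4.18 kb on the plus strand of chromosome X, positions 86191764 to 86195947. No other listed gene overlapped any of them. Counts per library ran from 7147 to 18400 for Esrrb and from 5663 to 15104 for Nr5a2, against 81 to 686 for Nr0b1, so values of Nr0b1 carry the largest counting error.

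The stretches directly upstream of the annotated gene starts are shown because Esrrb and Nr0b1 moved together after OCT4 loss while Nr5a2 did not. They come from RefSeq (build GRCm38.p6), which holds 5 start sites for the 3 genes, and the site at the edge of each counted interval is printed 5′ to 3′ on the gene's strand, with AGGTCA, the core of nuclear receptor elements, in capitals. Nr0b1 is printed up to the counted interval only, 239 bases.
Esrrb, chr12:86360867-86361116, plus strand: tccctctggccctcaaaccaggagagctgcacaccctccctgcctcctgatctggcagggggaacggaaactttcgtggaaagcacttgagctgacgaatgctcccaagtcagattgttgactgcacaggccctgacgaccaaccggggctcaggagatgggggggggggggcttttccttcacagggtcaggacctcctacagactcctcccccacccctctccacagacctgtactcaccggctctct
Nr5a2, chr1:136960449-136960698, minus strand: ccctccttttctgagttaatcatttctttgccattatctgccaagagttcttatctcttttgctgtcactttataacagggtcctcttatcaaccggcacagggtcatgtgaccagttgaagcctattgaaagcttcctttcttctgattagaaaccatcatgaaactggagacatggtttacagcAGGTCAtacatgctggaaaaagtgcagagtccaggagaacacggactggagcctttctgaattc
Nr0b1, chrX:86191525-86191763, plus strand: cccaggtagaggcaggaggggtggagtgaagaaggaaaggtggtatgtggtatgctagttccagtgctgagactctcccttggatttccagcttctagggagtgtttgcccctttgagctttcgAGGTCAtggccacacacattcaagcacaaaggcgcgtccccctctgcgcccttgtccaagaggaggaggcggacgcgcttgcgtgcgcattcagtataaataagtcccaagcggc
The 4 motifs searched here were looked for on both strands of the 250 bases before each start. The AGGTCA core stood once before Nr5a2, beginning 64 bases before the start, and once before Nr0b1, beginning 126 bases before its RefSeq start, and it was found in 14.0% of all 32851 RefSeq windows of that length. The extended element TCAAGGTCA of the estrogen-related and NR5A receptors, which contains AGGTCA, was in none of the 5 windows and in 0.387% of all windows. The octamer ATGCAAAT and the forkhead core TGTTTAC were likewise in none of the 5, against 1.6% and 3.17% of all windows. A match describes letters in this window and not binding.

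Library totals ran from 21827951 to 30406124 counts in cycling FOXD3-iKO cells, from 21113158 to 26112435 in OCT4-tetOff cells and from 7953841 to 17936504 in synchronized cells. In cycling cells Foxd3 itself averaged 3.34 ± 0.0406 CPM under 4HT and 9.22 ± 1.09 CPM under ethanol at 24 h (SD, n = 2 each; CPM, the library-scaled count with TMM factors, the trimmed mean of M-values, is used throughout). Its log2 fold change was −1.33, −1.49, −1.46 and −1.63 at 8, 14, 24 and 32 h, called by edgeR at 24 and 32 h (adjusted p = 0.019 and 0.0029), and −1.84 over the release times (edgeR adjusted p = 7.1e-09). Pou5f1 had 58.9 and 46.2 CPM under doxycycline, against 197 and 176 CPM in water at 24 h, and Foxd3 was also lower under doxycycline (log2 fold change −1.93 at 16 h and −3.12 at 24 h), so OCT4-depleted cells had less nascent RNA of both factors. After 16 h of doxycycline Pou5f1 averaged 79.2 ± 0.571 CPM, against 223 ± 3.65 CPM in water (SD, n = 2 each). Untreated FOXD3-iKO cells, scaled separately, had 81.4 ± 5.25 CPM of Pou5f1 under ethanol at 24 h (SD, n = 2). Of 10 ESC markers 9 were tested, and the other, Sox2, was listed at 0 in every library. The summed level ran from 1840 to 2480 CPM in cycling FOXD3-iKO cells, from 1830 to 2220 CPM in synchronized cells and from 569 to 2180 CPM in OCT4-tetOff cells. Summed levels of 10 fibroblast (feeder) markers lay between 3.22 and 29.2 CPM, and were highest in OCT4-tetOff cells under doxycycline.

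All 3 genes were well transcribed for their length. Per kilobase of the counted interval, levels in cycling ethanol cells at 24 h were 3.36 ± 0.0555 CPM per kb for Esrrb, 2.70 ± 0.136 for Nr5a2 and 2.73 ± 0.377 for Nr0b1 (SD, n = 2 each). Among the genes tested in cycling FOXD3-iKO cells, the mean level per kb lay at the 87.2th percentile for Esrrb, the 83.7th for Nr5a2 and the 78.8th for Nr0b1. In synchronized cells, which were scaled separately and labelled for a shorter time, the same ranks were 94.5, 95.3 and 87.7.

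Under doxycycline, nascent Esrrb and Nr0b1 RNA was strongly lower at both times, and Nr5a2 showed no detectable change. Only the OCT4-tetOff line received doxycycline, so OCT4 loss and other effects of doxycycline cannot be told apart. Esrrb had 405 and 374 CPM after 16 h of doxycycline, against 815 and 826 CPM in water. At 24 h Esrrb had 253 and 264 CPM under doxycycline, against 725.5 and 812 CPM in water. Every doxycycline library was lower than every water library. The log2 fold change was −1.07 ± 0.115 at 16 h (SE; edgeR quasi-likelihood test, Benjamini-Hochberg adjusted p = 0.00026) and −1.57 ± 0.117 at 24 h (edgeR adjusted p = 1.4e-05), or 47.5% and 33.6% of the level in water. Of all 17713 genes tested, 16.9% were called at 16 h and 36.9% at 24 h, at an adjusted p under 0.05, and 8.91% and 18.7% were called lower.

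Nr0b1 fell at both times as well. It had 8.50 and 7.14 CPM after 16 h of doxycycline, against 25.5 and 24.2 CPM in water. At 24 h it had 7.24 and 4.50 CPM under doxycycline, against 27.1 and 19.7 CPM in water. The groups did not overlap at either time, and the water libraries of 24 h differed from each other more than those of 16 h. The log2 fold change was −1.67 ± 0.217 at 16 h (edgeR adjusted p = 0.00076) and −1.99 ± 0.22 at 24 h (edgeR adjusted p = 0.00015), which left 31.5% and 25.1% of the level in water. Short genes as a class were also lower under doxycycline at 24 h: the median log2 fold change was −0.34 over 2830 genes under 5 kb. With the length trend of each library taken out, an alternative chosen after the data were seen, Nr0b1 was at −1.75 on the log2 scale.

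Nr5a2, the other DNA-binding receptor of the group, was not called. It had 277 and 293 CPM after 16 h of doxycycline, against 322 and 311 CPM in water. At 24 h it had 376 and 486 CPM under doxycycline, against 345 and 440.0 CPM in water. The 16 h groups stood apart by a small margin, with doxycycline lower, and the 24 h groups overlapped. The log2 fold change was −0.15 at 16 h, with a 95% interval of −0.50 to 0.20 (edgeR adjusted p = 0.57). At 24 h it was 0.14, with an interval of −0.21 to 0.485 (edgeR adjusted p = 0.52), so a change as large as that of Esrrb lies outside both intervals. With the length trend taken out Nr5a2 was lower by a small amount at 16 h (log2 fold change −0.23, edgeR adjusted p = 0.0108), and it was also called at 16 h when only the groups compared were fitted (−0.16, edgeR adjusted p = 0.0207). Genes of 100 to 200 kb, the class of Nr5a2 and Esrrb, had a median log2 fold change of 0.08 at 16 h and 0.30 at 24 h.

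The fall did not differ detectably between the 2 times. The doxycycline response at 24 h less that at 16 h was −0.50 ± 0.162 for Esrrb on the log2 scale (edgeR adjusted p = 0.31), −0.33 ± 0.307 for Nr0b1 (edgeR adjusted p = 0.73) and 0.29 ± 0.22 for Nr5a2 (edgeR adjusted p = 0.67). No gene was called in this difference by edgeR, while 1952 had an unadjusted p under 0.05. With the length trend taken out 628 genes were called, and the Esrrb difference was among them at −0.70 (edgeR adjusted p = 0.0131).

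**Figure D1:**
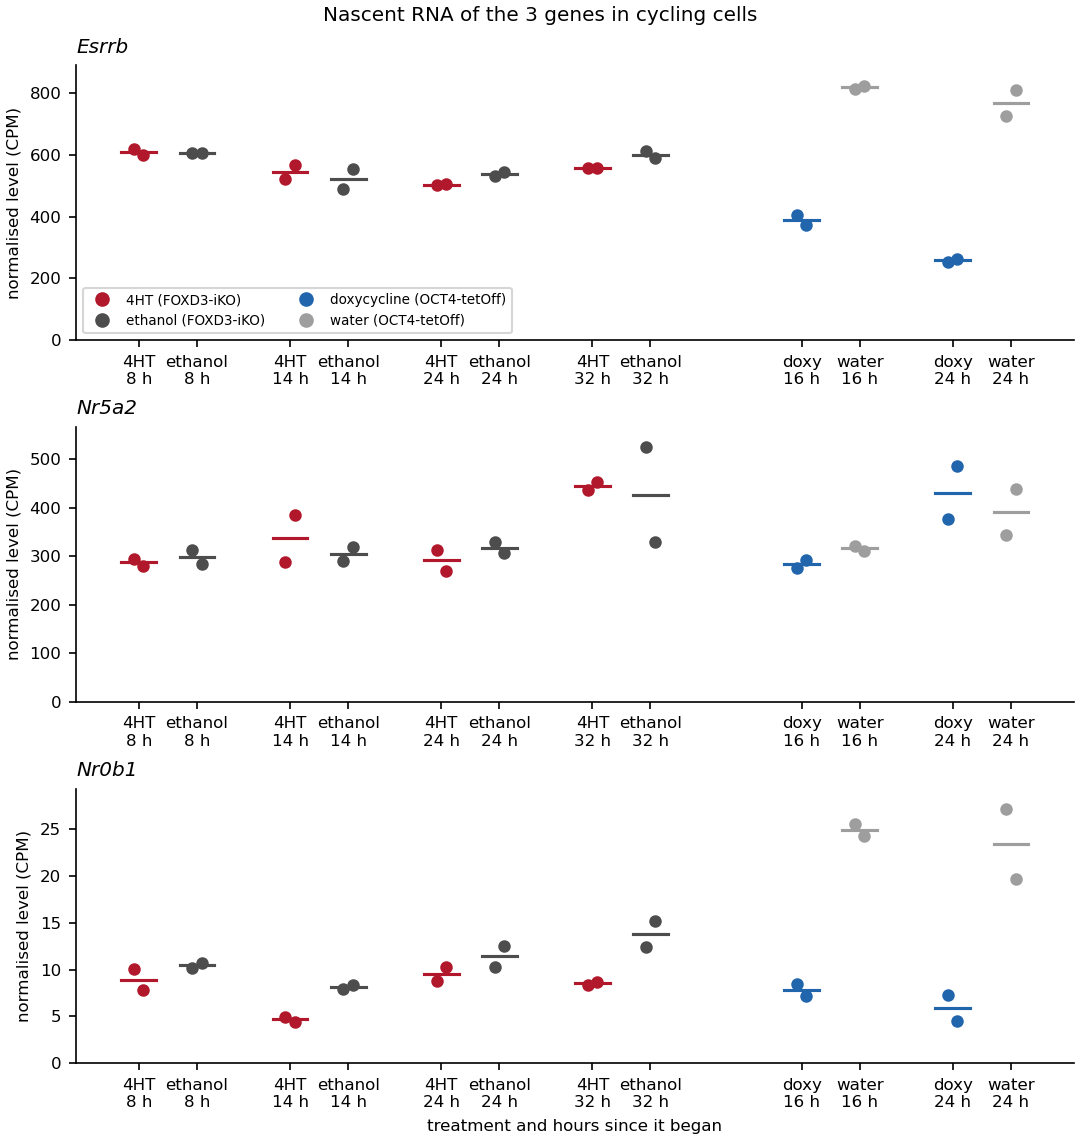
Normalised level (CPM, linear axes from 0) of Esrrb, Nr5a2 and Nr0b1 in each library of cycling cells, as points, with the mean of 2 libraries as a bar, for 4HT beside ethanol at 8 to 32 h and doxycycline beside water at 16 and 24 h. The 4 doxycycline libraries lie below the 4 water libraries for Esrrb and Nr0b1, and Nr5a2 shows a single high ethanol library at 32 h (525 CPM).

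Loss of FOXD3 in cycling cells had no called effect on Esrrb at any of the 4 times. Esrrb had 619 and 601 CPM under 4HT and 607 and 606 CPM under ethanol at 8 h. It had 522 and 566 CPM under 4HT and 491 and 555.5 CPM under ethanol at 14 h. At 24 h the values were 501 and 508 CPM under 4HT and 532 and 545 CPM under ethanol. At 32 h Esrrb had 559.7 and 558 CPM under 4HT and 614 and 589.7 CPM under ethanol. The groups overlapped at 8 and 14 h, and the 4HT libraries were lower by a small margin at 24 and 32 h. Log2 fold changes were 0.01, 0.06, −0.09 and −0.11 in order of time (SE 0.094 at each, edgeR adjusted p from 0.55 to 1), and the share of all 18707 genes called was 0.0107%, 0.016%, 0.481% and 9.47%. The 95% interval at 32 h ran from −0.31 to 0.10.

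Nr5a2 also had no called change after FOXD3 loss in cycling cells. It had 294 and 281 CPM under 4HT and 313 and 285 CPM under ethanol at 8 h. At 14 h it had 289 and 385 CPM under 4HT and 291 and 319.5 CPM under ethanol. At 24 h the values were 314 and 271 CPM under 4HT and 329 and 306 CPM under ethanol. The groups overlapped at all 3 of these times. At 32 h Nr5a2 had 436 and 454 CPM under 4HT and 525 and 329.5 CPM under ethanol, so that both 4HT libraries lay between the ethanol libraries. Log2 fold changes were −0.06, 0.14, −0.12 and 0.06 in order of time (SE 0.181, edgeR adjusted p from 0.90 to 1).

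The value of Nr5a2 at 32 h rested on the ethanol replicates. Without ethanol replicate 1 the log2 fold change was 0.43 (edgeR adjusted p = 0.0358), and without ethanol replicate 2 it was −0.22 (edgeR adjusted p = 0.359). Ethanol replicate 1 had 14.3% of its counts in Gm26917 and Gm42418, a pair of genes that overlap ribosomal RNA sequence, close to the 13.9% and 12.5% of the 4HT libraries of that time, while ethanol replicate 2 had 28%. The part of this share in the result was not tested.

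Nr0b1 was lower under 4HT in every pair of groups, and the fall was called at 32 h. It had 10.1 and 7.78 CPM under 4HT and 10.2 and 10.7 CPM under ethanol at 8 h. At 14 h it had 4.98 and 4.46 CPM under 4HT and 7.96 and 8.38 CPM under ethanol. At 24 h the values were 8.80 and 10.3 CPM under 4HT and 10.3 and 12.6 CPM under ethanol. At 32 h Nr0b1 had 8.35 and 8.68 CPM under 4HT and 12.4 and 15.2 CPM under ethanol. No 4HT library reached an ethanol library of its own time, although at 8 and 24 h the nearest values were almost equal. With 2 libraries per group this is a description, and the share of all genes without overlap was not determined. The log2 fold change was −0.70 ± 0.147 at 32 h (edgeR adjusted p = 0.0095), where 4.59% of all genes were called lower. It was −0.79 ± 0.159 at 14 h, a time at which edgeR called 3 genes in all and Nr0b1 was not among them (adjusted p = 0.37). At 8 h it was −0.23 ± 0.148 (edgeR adjusted p = 1) and at 24 h −0.25 ± 0.145 (edgeR adjusted p = 0.74).

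The call at 32 h sat near the threshold. It was lost when only the groups compared were fitted (−0.63, edgeR adjusted p = 0.176), with total counts outside Gm26917 and Gm42418 (−0.68, edgeR adjusted p = 0.0524), and without 4HT replicate 1, 4HT replicate 2 or ethanol replicate 2 (edgeR adjusted p = 0.0971, 0.082 and 0.0713), and it was kept under the other settings tried and without ethanol replicate 1. At 14 h Nr0b1 was called by DESeq2 (adjusted p = 0.046), without the low-count filter (edgeR adjusted p = 0.00246) and with the length trend taken out (edgeR adjusted p = 0.0486). Genes under 5 kb had a median log2 fold change of −0.28 at 32 h and 10.9% of these 3127 genes were called lower, and with the trend taken out Nr0b1 stood at −0.48 (edgeR adjusted p = 0.0091).

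The 4HT response did not differ detectably among the 4 times. The joint edgeR test gave adjusted p = 0.97 for Esrrb, 0.99 for Nr5a2 and 0.47 for Nr0b1, with 0.454% of genes called. The libraries of 8 and 14 h carry names from a different numbered set than those of 24 and 32 h, so a comparison across these sets cannot be told apart from a change with time. Under ethanol alone, edgeR called none of the 3 genes between 14 and 8 h (adjusted p from 0.42 to 0.97), where it called no gene at all (1928 at an unadjusted p under 0.05, and 1099 called with only the groups compared), or between 32 and 24 h (adjusted p from 0.18 to 0.33, with 5.38% of genes called).

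The responses to the 2 losses were compared at 24 h by fitting the 8 libraries of both lines together. The 4HT response minus the doxycycline response was 1.48 ± 0.179 for Esrrb on the log2 scale (edgeR adjusted p = 0.00043). It came from −0.09 under 4HT and the larger fall of −1.57 under doxycycline. For Nr0b1 the difference was 1.75 ± 0.316 (edgeR adjusted p = 0.0047), from −0.25 under 4HT and −1.99 under doxycycline. For Nr5a2 the difference was −0.25, with a 95% interval of −0.78 to 0.28 (edgeR adjusted p = 0.50). Of 18437 genes, 16.5% were called in this difference. Foxd3 itself fell further under doxycycline (−3.12) than under 4HT (−1.46), with a difference of 1.67 ± 0.258 (edgeR adjusted p = 0.0019). The comparison therefore does not set FOXD3 loss against OCT4 loss alone. The lines also differed before any depletion. Under vehicle at 24 h, Esrrb was higher in OCT4-tetOff water cells than in FOXD3-iKO ethanol cells by a log2 difference of 0.54 ± 0.126 (edgeR adjusted p = 0.0089). Nr0b1 was higher by 1.06 ± 0.214 (edgeR adjusted p = 0.0038), while Nr5a2 was at 0.33 ± 0.17 (edgeR adjusted p = 0.17). Here 32.5% of genes were called. The Esrrb call was lost without either ethanol library (edgeR adjusted p = 0.102 and 0.0728) and the Nr0b1 call without ethanol replicate 1 (edgeR adjusted p = 0.0517). Line, vehicle and experiment cannot be told apart.

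**Figure D2:**
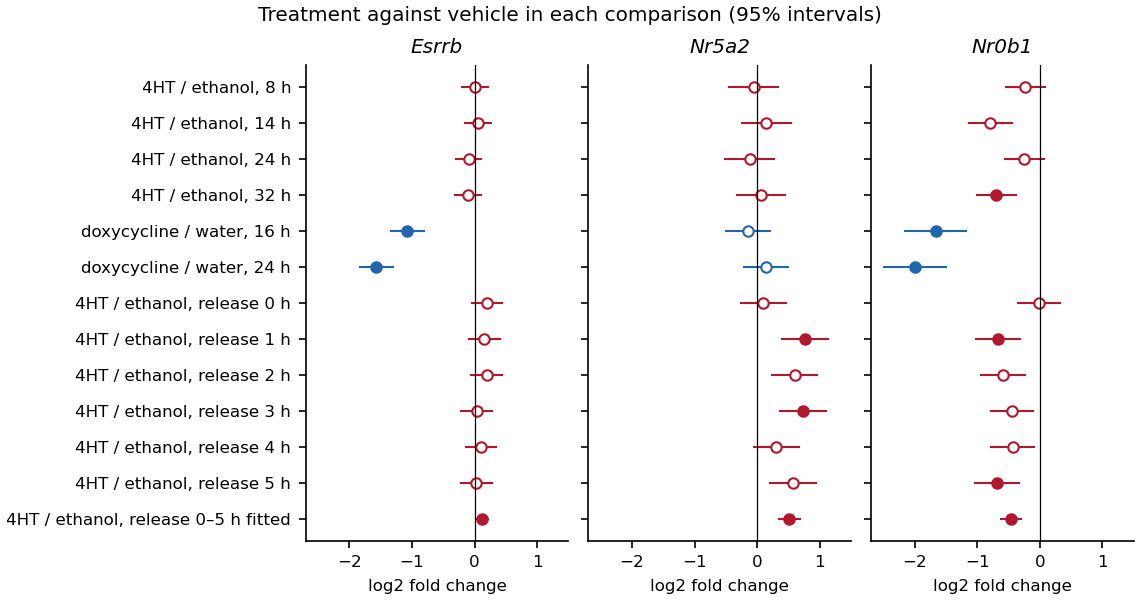
Log2 fold change of treatment over vehicle for each gene (x axis), with 95% intervals as lines, in 13 comparisons down the page: 4HT over ethanol in cycling cells, doxycycline over water, and 4HT over ethanol at each release time and over all of them. Filled points have an edgeR adjusted p under 0.05. Doxycycline gives −1.57 for Esrrb and −1.99 for Nr0b1 at 24 h, and after release Nr5a2 lies to the right of 0 and Nr0b1 at or to the left of it.

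In synchronized cells, nascent Nr5a2 was higher and Nr0b1 lower under 4HT than under ethanol over the release times. Only the FOXD3-iKO line received 4HT, so FOXD3 loss and other effects of 4HT cannot be told apart. The library numbers of all ethanol samples here precede those of all 4HT samples, so arm and library order cannot be told apart either. Over the 6 times Nr5a2 had a lowest value of 657, a median of 1030 and a highest of 1220 CPM under 4HT, against 526.5, 671 and 999 CPM under ethanol (n = 12 each). The 4HT mean was higher at 6 of 6 times, and at 5 of them the groups did not overlap. Esrrb also had a higher 4HT mean at 6 of 6 times, without overlap at 4. With 2 libraries per group such counts are a description, and the share of all genes with them was not determined. With time as a covariate the log2 fold change of Nr5a2 was 0.51 ± 0.081 (edgeR adjusted p = 6.8e-05), or 143% of ethanol. In this comparison 37% of 17739 genes were called, 18.6% of all tested being higher and 18.4% lower. Summed primitive endoderm markers ran from 353 to 466 CPM under 4HT and from 272 to 369 CPM under ethanol. Of these 4 of 9 tested were higher and 2 lower, with a median log2 fold change of 0.05. Foxa2 was at 0 in some groups of both arms, and Sox7 under 4HT at 5 h. Summed trophectoderm markers ran from 238 to 337 CPM under 4HT and from 194 to 263 CPM under ethanol. Here 4 of 11 tested were higher and 2 lower, with a median log2 fold change of 0.095, and Hand1 was at 0 in both arms at 0 h. The part of these markers in the changes of Nr5a2 and Nr0b1 was not tested.

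The Nr5a2 difference was not detectable at 0 h and was called at 1 and 3 h. At 0 h it had 657 and 764 CPM under 4HT and 656 and 670.0 CPM under ethanol, and the groups overlapped. At 1 h it had 952 and 1061 CPM under 4HT and 570.4 and 610.0 CPM under ethanol. At 3 h it had 1032 and 1041 CPM under 4HT and 526.5 and 724 CPM under ethanol. Log2 fold changes were 0.77 ± 0.173 at 1 h (edgeR adjusted p = 0.034) and 0.73 ± 0.173 at 3 h (edgeR adjusted p = 0.039), where 2.4% and 3.49% of genes were called. They were 0.60, 0.31 and 0.58 at 2, 4 and 5 h (edgeR adjusted p = 0.10, 0.53 and 0.085), and 0.445%, 0.789% and 0.519% of genes were called at 0, 2 and 4 h. The calls at single times were close to the threshold. With only the groups compared Nr5a2 was not called at 1 h (0.76, edgeR adjusted p = 0.0749) or 3 h (0.71, edgeR adjusted p = 0.414), and the counts of genes called fell to 6 and 0 there. Its call at 1 h was lost without any of the 4 libraries of that time, and that at 3 h without either 4HT library or ethanol replicate 1. The ethanol libraries of 4 h differed from each other the most, at 673 and 999 CPM. Whether the response differed between release times was tested jointly and gave edgeR adjusted p = 0.76, no gene being called in that test (edgeR called 1738 without the low-count filter).

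Long genes as a class moved the same way as Nr5a2 in this experiment. The median log2 fold change over all release times was 0.24 over 1505 genes of 100 to 200 kb, of which 44.9% were called higher, and −0.20 over 2720 genes under 5 kb, of which 30.8% were called lower. With the length trend of each library taken out, Nr5a2 remained called at 0.32 ± 0.0439 (edgeR adjusted p = 1.67e-05). Under plain total-count scaling the median over all genes moved by −0.21 relative to TMM, which gave Nr5a2 0.31 (edgeR adjusted p = 0.0027).

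Nr0b1 went the other way. It had a lowest value of 8.63, a median of 11.9 and a highest of 20.9 CPM under 4HT, against 15.2, 17.0 and 21.5 CPM under ethanol (n = 12 each). Its mean was lower under 4HT at 6 of 6 times, and at 5 of them the groups did not overlap, the exception being 0 h. These counts too are a description, without a share of all genes beside them. At 0 h Nr0b1 had 18.4 and 20.9 CPM under 4HT and 17.7 and 21.5 CPM under ethanol. At 1 h it had 11.4 and 8.63 CPM under 4HT and 15.2 and 16.8 CPM under ethanol. At 5 h it had 12.2 and 9.75 CPM under 4HT and 15.4 and 19.8 CPM under ethanol. Over all times the log2 fold change was −0.47 ± 0.077 (edgeR adjusted p = 0.00011). It was −0.67 ± 0.167 at 1 h (edgeR adjusted p = 0.046) and −0.68 ± 0.165 at 5 h (edgeR adjusted p = 0.044, 2.09% of genes called), and between −0.44 and −0.58 at 2, 3 and 4 h (edgeR adjusted p from 0.098 to 0.32). With only the groups compared it was not called at 1 h (edgeR adjusted p = 0.0848) or 5 h (edgeR adjusted p = 0.16). The call at 1 h was also lost without 4HT replicate 2 or either ethanol library, and that at 5 h without any of the 4 libraries of that time. With the length trend taken out it was −0.30 ± 0.065 (edgeR adjusted p = 0.00162).

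Within the 4HT cells Nr0b1 was lower at each of the 5 release times than at 0 h. Its log2 fold changes against 0 h were −0.96, −0.85, −0.62, −0.69 and −0.83 at 1, 2, 3, 4 and 5 h (edgeR adjusted p from 0.0029 to 0.024, joint test 0.0062). Of all genes, 6.16%, 9.48%, 10.4%, 14.5% and 20.1% were called at these times and 15.4% in the joint test. Without 4HT replicate 2 of 0 h the joint test gave edgeR adjusted p = 0.0812, and at each single time the call was lost without at least 1 of the 4HT libraries compared. Under ethanol the joint test gave edgeR adjusted p = 0.54 for Nr0b1, with 19.4% of genes called, and the values against 0 h lay between −0.30 and −0.16. At the single times under ethanol 18.3%, 15.8%, 21.9%, 18.3% and 21.4% of genes were called against 0 h, in order of time, and none of the 3 genes was called by edgeR (adjusted p of 0.18 or more). Nr5a2 rose within 4HT cells at 4 h (0.54 ± 0.173, edgeR adjusted p = 0.046) and 5 h (0.76 ± 0.173, edgeR adjusted p = 0.0065) against 0 h, and its joint test gave 0.076 under 4HT and 0.14 under ethanol. The Nr5a2 call at 4 h was lost without any of the 4 libraries compared, and that at 5 h without 4HT replicate 1 of 0 h (0.65, edgeR adjusted p = 0.0913). The difference between the arms in these courses is the joint test of the response above, which gave edgeR adjusted p = 0.76 for Nr0b1 as for Nr5a2.

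Esrrb showed a small difference whose sign depended on scaling. It had a lowest value of 989, a median of 1047 and a highest of 1190.0 CPM under 4HT, against 903, 941 and 1142 CPM under ethanol (n = 12 each). The log2 fold change over all times was 0.12 ± 0.044 (edgeR adjusted p = 0.042), and no single time was called (edgeR adjusted p from 0.38 to 0.91). With total counts it was −0.09 (edgeR adjusted p = 0.219), with the length trend taken out −0.12 (edgeR adjusted p = 0.396), and without the 0 h libraries 0.10 (edgeR adjusted p = 0.151). Within either arm no change against 0 h was called by the joint edgeR test for Esrrb (adjusted p = 0.75 in both).

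**Figure D3:**
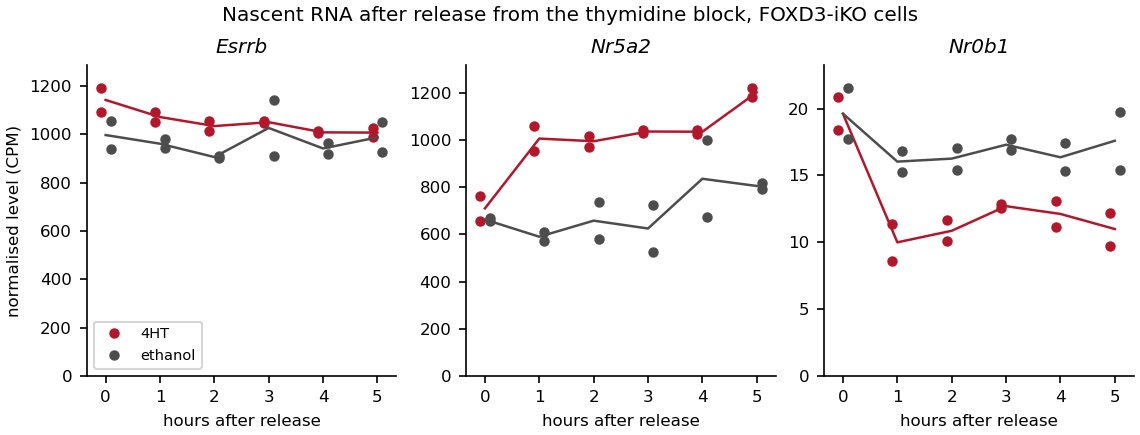
Normalised level (CPM, linear axes from 0) of Esrrb, Nr5a2 and Nr0b1 in each synchronized library against hours after release, with 4HT and ethanol libraries as points and lines through the mean of 2 libraries. Nr5a2 under 4HT lies between 952 and 1220 CPM from 1 h on, and Nr0b1 under 4HT falls below every ethanol library of the same time from 1 h on.

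**Figure D4:**
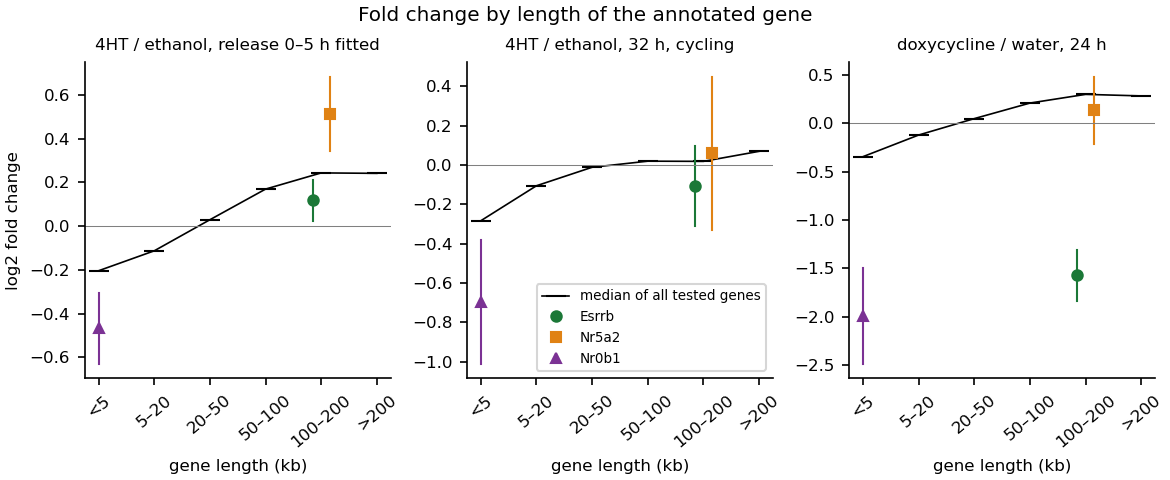
Log2 fold change against class of gene length in kb, with the median of all tested genes in black and each of the 3 genes with its 95% interval, for 4HT over ethanol across release, 4HT over ethanol at 32 h in cycling cells, and doxycycline over water at 24 h. The median is lowest under 5 kb in each panel, at −0.20 across release against 0.24 at 100 to 200 kb. Nr0b1 and Esrrb sit below the median of their class in all 3 panels, although the Esrrb interval at 32 h includes that median. Nr5a2 lies above the median of its class across release. At 32 h and under doxycycline the Nr5a2 interval includes that median.

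The order of the group means differed between the 3 genes. In OCT4-tetOff cells Esrrb and Nr0b1 had the same order, water at 16 h over water at 24 h over doxycycline at 16 h over doxycycline at 24 h. For Esrrb none of the 3 neighbouring pairs overlapped, and for Nr0b1 only the step between water at 24 h and doxycycline at 16 h was free of overlap. Nr5a2 was highest there in doxycycline cells at 24 h, with 431 ± 77.7 CPM, and lowest in doxycycline cells at 16 h, with 285 ± 11.7 CPM (SD, n = 2 each). In cycling FOXD3-iKO cells 6 of 7 neighbouring pairs overlapped for Esrrb and for Nr0b1, and all 7 for Nr5a2. In synchronized cells Nr5a2 was highest under 4HT at 5 h, with 1202 ± 24.8 CPM, and lowest under ethanol at 1 h, with 590.2 ± 28 CPM, while Nr0b1 was highest under ethanol at 0 h, with 19.6 ± 2.7 CPM, and lowest under 4HT at 1 h, with 9.99 ± 1.92 CPM (SD, n = 2 each). There 9 of 11 neighbouring pairs overlapped for Esrrb and for Nr5a2, and 10 of 11 for Nr0b1. With 2 libraries per group these counts of pairs are a description, and the share over all genes was not determined.

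Across the 48 libraries, each table centred on its own mean, Esrrb and Nr0b1 varied together with Pearson r = 0.674 of log2 CPM. The value was 0.954 within OCT4-tetOff libraries, which hold the fall of both genes, 0.297 within cycling FOXD3-iKO libraries and −0.207 within synchronized ones. Nr5a2 and Nr0b1 had r = −0.341 over all libraries and −0.77 within synchronized ones, and Esrrb and Nr5a2 had r = −0.024. These values describe libraries that share depth, scaling and the length trend, and libraries of 1 group are not independent of their treatment.

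The genes most like Esrrb over the 48 libraries, among 10820 genes, were Zfp42 (r = 0.956), the naive marker also called Rex1, Mybl2 (0.952), a cell cycle MYB factor, Nfatc2ip (0.942), Tdh (0.938), the threonine dehydrogenase of mouse ESCs, and She (0.936). Their correlation rests mostly on the OCT4-tetOff libraries (r of 0.99 or more there, 0.266 to 0.717 in cycling FOXD3-iKO libraries), so their fall under doxycycline comes with the choice and is a description. Their log2 fold changes there at 24 h lay between −1.79 and −2.81, and none was called after 4HT in cycling cells at 32 h (edgeR adjusted p from 0.14 to 0.94). Among those most like Nr0b1 were Id3 (0.873), a BMP-induced gene whose protein blocks E-protein dimers, Eif4e2 (0.867) and Sept1 (0.854), a septin. Likewise as a description, under doxycycline at 24 h Id3 was lower by a log2 fold change of −2.98, Sept1 by one of −2.04 and Eif4e2 by one of −1.01. Over the release times, whose libraries also entered the choice, Id3 (−0.59) and Eif4e2 (−0.14) were lower under 4HT, while Sept1 was at −0.14 (edgeR adjusted p = 0.085). Those most like Nr5a2 were Tmem131 (0.970), Ap3b1 (0.950), Zfp951 (0.946), Herc4 (0.945) and Efl1 (0.945), which span 46.9 to 207.4 kb. None of these 5 was called under doxycycline at 24 h, where their log2 fold changes lay between −0.03 and 0.25. All 5 were higher under 4HT over the release times, by 0.33 to 0.44, where 18.6% of all genes were called higher. Both patterns come with the choice of genes like Nr5a2 in these same libraries and are a description.

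Other nuclear receptor genes split in both directions after OCT4 loss. Of 39 tested from a list of 46, 5 rose and 4 fell at 16 h, and 11 rose and 9 fell at 24 h, with a median log2 fold change of 0.17 at 24 h against −0.01 over all genes. Over all genes 7.94% were higher and 8.91% lower at 16 h, and 18.1% were higher and 18.7% lower at 24 h. Rorb, a receptor of the ROR family, rose by 4.21 ± 0.332 at 24 h, and the retinoic acid receptor Rarb was at 0.85 ± 0.156. Rarg, another retinoic acid receptor, was lower at −1.50 ± 0.105 (edgeR adjusted p = 9.8e-06), and Nr4a2, an immediate early orphan receptor, at −1.04 ± 0.146. The bile acid receptor Nr1h4 was at −1.62 ± 0.246, with the photoreceptor gene Nr2e3 at −1.97 ± 0.358 and the progesterone receptor Pgr at −1.54 ± 0.29. Hnf4a, a receptor of liver and endoderm, rose by 0.59 ± 0.122.

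After FOXD3 loss the same list gave 4 higher and 5 lower of 36 tested in cycling cells at 32 h, and 9 higher and 5 lower of 36 over the release times. Over all genes 4.88% were called higher and 4.59% lower at 32 h, and 18.6% higher and 18.4% lower over the release times, where the list's count was near that share. Esr2, estrogen receptor beta, was at 1.34 ± 0.162 over the release times (edgeR adjusted p = 4.2e-06), and Rxra, the partner of many receptors, at 0.28 ± 0.054. Esrra, of the same subfamily as Esrrb, was lower at −0.41 ± 0.063 (edgeR adjusted p = 4.8e-05), as was the thyroid hormone receptor Thra at −0.42 ± 0.077. No member of the list was called by edgeR at 8, 14 or 24 h, where 2, 3 and 90 genes were called in all.

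Among the coregulators through which these receptors act, Ppargc1b, a coactivator that works with estrogen-related receptors, fell under doxycycline at 24 h by a log2 change of 2.21 ± 0.15 (edgeR adjusted p = 8.2e-06), and Nrip1, a corepressor, rose by 1.02 ± 0.122 (edgeR adjusted p = 0.00024). In all, 5 of 23 tested rose and 4 fell at 24 h, near the 18.1% higher and 18.7% lower of all genes. Over the release times 15 of 23 were higher under 4HT and 1 was lower, with a median of 0.21 against −0.01 over all genes, of which 18.6% were higher and 18.4% lower. Those named were Ncoa3 (0.35 ± 0.048) and Ncoa2 (0.44 ± 0.068), of the p160 coactivators, the corepressor Ncor1 (0.47 ± 0.088) and the acetyltransferases Crebbp (0.36 ± 0.071) and Ep300 (0.17 ± 0.035), while Ppargc1b was at −0.21 ± 0.055. In the same comparison the median over all genes of 100 to 200 kb was 0.24, and 44.9% of them were called higher. Total-count scaling moved the median over all genes by −0.21 relative to TMM, about the size of the coregulator median. The coregulator values under that scaling were not determined, and the part of gene length in them was not tested.

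The rest of the naive pluripotency network, with the 3 genes left out, mostly moved like Esrrb and Nr0b1 after OCT4 loss. Of 18 tested from a list of 20, 1 rose and 12 fell at 16 h and 2 rose and 14 fell at 24 h, with medians of −0.73 and −0.93 on the log2 scale. Of all genes 8.91% were lower and 7.94% higher at 16 h, and 18.7% lower and 18.1% higher at 24 h. At 24 h Tcl1, a cofactor of AKT, was at −4.09 ± 0.208, Gbx2 at −3.36 ± 0.283, Zfp42 at −1.79 ± 0.105, Klf5 at −1.73 ± 0.11 and Tfcp2l1 at −1.45 ± 0.109, so that the fall of Esrrb (−1.57) lay among theirs. Socs3, a feedback inhibitor of LIF signalling, rose by 1.36 ± 0.285 and Stat3 by 0.53 ± 0.124. ESC markers as a whole fell with them, 9 of 9 tested being lower at 24 h. Nanog, Zfp42, Fgf4, Klf4 and the untested Sox2 are in both lists, and Pou5f1 is the targeted gene. These markers are therefore not independent of the network counts. At the same time 8 of 10 primitive endoderm markers were higher and 1 lower, and 6 of 12 trophectoderm markers were higher and 2 lower. At 24 h the 10 ESC markers summed to 569 to 722 CPM under doxycycline and 1720 to 1900 CPM in water, and 12 primitive endoderm markers to 412 to 464 CPM under doxycycline and 234 to 272 CPM in water. The 10 fibroblast markers summed to 26.9 to 29.2 CPM under doxycycline and 16 to 16.7 CPM in water at 24 h, with 2 of 4 tested called higher. Of these markers Col3a1, Lum and Dcn were at 0 under doxycycline, and Lum, Dcn and Postn at 0 in water. The part of all these markers in the fall of Esrrb and Nr0b1 was not tested. In these bulk samples fewer cells of a type and less RNA per cell cannot be told apart.

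After FOXD3 loss 3 of 19 network genes were lower and none higher by edgeR in cycling cells at 32 h, where 4.59% of all genes were lower and 4.88% higher. Over the release times 3 were higher and 5 lower of 19, with a median of 0.05, and 18.6% of all genes were higher and 18.4% lower. Tcl1 (−0.41 ± 0.066) and Fgf4 (−0.41 ± 0.072), the main FGF of ESCs, were lower like Nr0b1. Tfcp2l1 (0.22 ± 0.04) and Tbx3 (0.19 ± 0.051) were higher. Both rises are about the size of the −0.21 by which total-count scaling moved the median over all genes, and their values under that scaling were not determined. At 32 h 5 of 10 tested primitive endoderm markers were higher and 2 of 9 ESC markers lower under 4HT. The primitive endoderm markers summed to 260 to 267 CPM under 4HT and 177 to 203 CPM under ethanol, with Foxa2 at 0 under 4HT, and their part in the fall of Nr0b1 at that time was not tested.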

How the data were processed

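The measured quantity was 4SU-labelled RNA, in 48 libraries from 24 groups of 2. The authors deposited 3 tables of raw read counts per gene, one for each experiment, made with STAR and featureCounts on mm10, per the submitters' processing notes. Tool versions and the strand setting were not given in the sources used. The counted length equals the annotated gene interval, introns included, and the deposited length column is used as other information only. Library totals are given with the results. Members and gene lists were chosen with earlier results of these data known, and the length-trend alternative and the one without the 0 h libraries were added after the data were seen. Each table was fitted separately with edgeR 4.0.16 in R 4.3.3 (limma 3.58.1): TMM factors, filterByExpr with a minimum count of 10, 1 mean per group, quasi-likelihood tests, and Benjamini-Hochberg adjustment over all genes tested, with calls at an adjusted p under 0.05. The 8 libraries of 24 h were also fitted jointly. Levels are CPM, and CPM per kb between genes. DESeq2 1.42.0, other scalings, no filter, fits on fewer groups, a replicate block and each library left out in turn were tried. The scripts were tested on simulated data. The rule for named genes took up to 5 called genes per direction by adjusted p from each list, and the 5 genes with the highest correlation for each member. A few genes that this rule names are not reported here. No 2 libraries held identical counts. Gene symbols matched 54723 of 54752 identifiers.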

Additional observations from a re-analysis of the deposited data

Results flagged for a closer look

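The 4HT response at 24 h in FOXD3-iKO cells differed from the doxycycline response at 24 h in OCT4-tetOff cells for 2 of the 3 genes, by a test of the difference itself. The difference was 1.484 on the log2 scale for Esrrb (edgeR adjusted p = 0.00043) and 1.745 for Nr0b1 (edgeR adjusted p = 0.0047). The separate responses were −0.09 under 4HT and −1.57 under doxycycline for Esrrb, and −0.25 under 4HT and −1.99 under doxycycline for Nr0b1. Nascent Foxd3 fell further under doxycycline (−3.12) than under 4HT (−1.46). Line and experiment differ along with the factor lost, and these cannot be told apart.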

How the results depend on the processing

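The falls of Esrrb and Nr0b1 under doxycycline, their differences from the 4HT response, and the Nr5a2 and Nr0b1 changes over the release times kept direction and call under every setting of the whole fit. Of 192 refits of main comparisons under other settings, 171 kept direction and side of the threshold, as did 136 of 168 that left out 1 library. The cause of the changes below was not tested. Log2 values follow.

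With total counts alone, Esrrb changed sign in cycling cells at 8 h (−0.016), 14 h (−0.058), 32 h (0.063) and for 32 less 24 h (0.113), over release (−0.087), at 1 to 5 h (−0.068, −0.164, −0.236, −0.066 and −0.013), and for water at 24 over 16 h (0.109). Nr5a2 did so for doxycycline at 16 h (0.0063) and release 0 h (−0.074), and Nr0b1 for water at 24 over 16 h (0.125). Outside Gm26917 and Gm42418, Esrrb changed sign over release (−0.045), at 1 h (−0.089), 3 h (−0.262), 4 h (−0.048) and 5 h (−0.145), Nr0b1 at 0 h (0.041), and Nr0b1 at 32 h was not called (−0.685). With the length trend removed, Nr5a2 changed sign at 8 h (0.0068), under doxycycline at 24 h (−0.132), in the difference of responses (0.043), and for ethanol at 14 over 8 h (−0.064) and water at 24 over 16 h (−0.024). Esrrb did so at 14 h (−0.044), over release (−0.116) and at 1 to 5 h (−0.151, −0.067, −0.484, −0.189 and −0.224), and Nr0b1 for water (0.130). Newly called were Nr0b1 at 14 h (−0.760) and Nr5a2 at doxycycline 16 h (−0.227). DESeq2 called Nr0b1 at 14 h (−0.811) and gave 0.020 at release 0 h, as RLE factors gave 0.025. Without the filter, Nr0b1 was called at 14 h (−0.799), Esrrb over release was not (0.096), and Esrrb was −0.045 at release 3 h and 0.0062 for 32 less 24 h. With only the groups compared, Nr0b1 at 32 h was not called (−0.629) and Nr5a2 at doxycycline 16 h was (−0.156). The same setting lost the calls of Nr5a2 at release 1 and 3 h and of Nr0b1 at 1 and 5 h. Esrrb over release was not called as a mean of 6 times (0.118) or without the 0 h libraries (0.095).

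Leaving out 1 library at a time gave Esrrb −0.015 to 0.031 at 8 h, −0.036 to 0.147 at 14 h, 0.102 to 0.143 over release, with the call lost in 20 of 24, −0.170 to 0.207 at release 3 h and −0.044 to 0.122 at 5 h. Nr5a2 ran from −0.128 to 0.0070 at 8 h, −0.079 to 0.305 at 14 h, −0.216 to 0.426 at 32 h, −0.111 to 0.530 for 32 less 24 h, −0.060 to 0.324 for doxycycline at 24 h, −0.013 to 0.205 at release 0 h, and −0.039 to 0.101 for ethanol at 14 over 8 h. Nr0b1 ran from −0.431 to −0.055 at 8 h, −0.842 to −0.520 at 32 h, −0.107 to 0.173 at release 0 h and −0.335 to 0.112 for water at 24 over 16 h.

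Replicate numbers are shared between groups, but the labels do not say that they pair libraries, and deviations of same-numbered libraries correlated between −0.254 and 0.736 over 12 pairs, 7 of them over 0.1. With the number as a block, no main call of the 3 genes changed (Nr0b1 at 32 h −0.69, Esrrb over release 0.12). The block also called Nr5a2 at release 2 h (0.60) and 5 h (0.58).

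Counts of called genes are given as reported, then over other settings, then with 1 library left out. They were 2, 0 to 69 and 0 to 0 at 8 h, 3, 2 to 15 and 0 to 1 at 14 h, 90, 46 to 359 and 2 to 17 at 24 h, and 1771, 199 to 2608 and 572 to 4494 at 32 h. They were 2986, 2524 to 6576 and 1332 to 1429 for doxycycline at 16 h, 6531, 4258 to 8237 and 3977 to 7807 for doxycycline at 24 h, 3039, 2642 to 5086 and 1436 to 4870 for the difference of responses, 5990, 5097 to 8605 and 3338 to 4664 between the lines under vehicle, and 6565, 4632 to 8209 and 5759 to 7230 over release. They were 79, 0 to 1704 and 5 to 26 at release 0 h, 425, 6 to 1457 and 13 to 348 at release 1 h, 140, 55 to 526 and 18 to 48 at release 2 h, 619, 0 to 3003 and 21 to 3710 at release 3 h, 92, 0 to 601 and 16 to 112 at release 4 h, and 370, 42 to 1100 and 43 to 102 at release 5 h. They were 2727, 1291 to 5371 and 1172 to 2305 for release times against 0 h in 4HT cells, 3441, 751 to 6298 and 1320 to 7650 for release times against 0 h in ethanol cells, and 1006, 0 to 2862 and 74 to 4633 for ethanol at 32 over 24 h. Nr0b1 has the fewest counts of the 3 genes, which limits its precision.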
